A study of Mus musculus with 9 samples.

Results

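The genes described here encode the machinery of oxidative phosphorylation in mouse ovary: 109 of the 22544 entries of the deposited table, chosen by symbol. Of these, 13 are encoded by mitochondrial DNA (mt-Nd, mt-Co, mt-Cytb and mt-Atp genes) and 96 by the nucleus (the Nduf, Sdh, Uqcr, Cox4i, Cox5 to Cox8 and Atp5 families). The symbol rule also takes in 8 Ndufaf genes, which help to assemble complex I and are kept apart below. Polyadenylated RNA was profiled in 9 ovary libraries, 3 in each of 3 groups. The reference group is labelled NC, the CTX group received the agent so abbreviated, the usual short form of cyclophosphamide, and the group labelled HBOT is described in the design text as CTX plus hyperbaric oxygen. The oxygen group therefore carries the drug as well, and no group with oxygen alone was analysed here. The sources used here do not give strain, age, dose, schedule or time of collection. Whether the 3 libraries of a group are 3 animals is not stated either, so each p-value rests on library-to-library spread that may be technical.

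Oxidative phosphorylation passes electrons from NADH (through complex I) and succinate (through complex II) to ubiquinone, on to cytochrome c (complex III) and to oxygen (complex IV), and the proton gradient so built drives ATP synthase (complex V). Complexes I, III, IV and V are mosaics of subunits from both genomes, while complex II is wholly nuclear. In the ovary, oocytes rely on mitochondrial ATP, and steroid-secreting cells begin steroid synthesis inside mitochondria.

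Levels are given as FPKM, fragments per kilobase of transcript scaled to the library total, which are per length and so can be compared between genes. Fold changes are differences of mean log2(FPKM + 1) between groups, tested with limma over all 13338 genes that reached 1 FPKM in at least 3 libraries, and a gene is called at an adjusted p under 0.05. The summed FPKM of a library ran from 394046.5 to 420058.1, and read depth is unknown. HBOT replicate 2 stood apart: the ovulatory growth factor Ereg was at 361 FPKM in it and at 0.964 FPKM or less in every other library. Fold changes and set medians of the HBOT group are therefore given with and without it. The 3 groups share a single estimate of spread, so this library also bears on the SE and p of CTX against NC. Defining ovarian markers were present in every library, and all 10 oocyte genes of the marker list reached 1 FPKM in at least 3 libraries, with summed levels of 141 to 201 FPKM (NC), 223 to 333 (CTX) and 328 to 370.5 (HBOT). For 7 genes of steroid-secreting cells the sums were 6995 to 10099.7, 4899.9 to 10122 and 5652 to 6986 FPKM. For 7 corpus luteum genes they were 3242 to 4194, 798 to 1609 and 1048 to 4094 FPKM, so the CTX sum was below NC in every library. In NC that sum is mostly Akr1c18, at 2509, 2464 and 2127 FPKM in replicates 1 to 3. In CTX replicates 1 to 3 Akr1c18 was at 289, 125 and 153 FPKM, of sums of 798, 1033 and 1609 FPKM. Ptgfr and Onecut2 were also lower in CTX without overlap, whereas Lhcgr, Prlr, Sfrp4 and Scarb1 overlapped. For 6 red cell genes, of which 5 passed the filter, they were 62.9 to 207, 387 to 817 and 317 to 735 FPKM, and for 7 macrophage genes 154 to 223, 206 to 327 and 221 to 430.1. For 8 markers of skeletal and heart muscle, tissues rich in mitochondria, the sum stayed at 2.97 FPKM or less in all 9 libraries, with Myh1 and Myh4 under 0.1 FPKM throughout. The part of these cell types in the results below was not tested.

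The mitochondrially encoded genes made up a larger share of the library in HBOT than in NC. They took 8.88%, 7.67% and 8.26% of the summed FPKM in NC replicates 1 to 3, 9.01%, 7.94% and 9.26% in CTX and 9.08%, 10.2% and 9.75% in HBOT. Group means were 8.27% ± 0.609, 8.74% ± 0.699 and 9.69% ± 0.574 (SD, n = 3). Every HBOT library lay above every NC library, whereas CTX overlapped both groups, and HBOT replicate 1 lay within the CTX range. The nuclear set, although it holds 96 genes, took only 2.099%, 1.995% and 2.03% in NC, 1.97%, 2.08% and 2.19% in CTX and 1.91%, 1.69% and 2.03% in HBOT. The summed oocyte and red cell markers, like the mitochondrial share, were higher in every HBOT library than in every NC library. The same held for 6 neutrophil genes, whose sums were 0.8802 to 1.93 FPKM in NC, 7.03 to 33.7 in CTX and 13.1 to 37.5 in HBOT, and for 6 genes of T and NK cells, at 3.27 to 3.56, 6.805 to 20.9 and 7.901 to 13.5 FPKM. For all 4 of these marker lists the CTX libraries also lay above the NC libraries, and their part in the difference of the mitochondrial share was not tested. The lowest nuclear share was that of HBOT replicate 2, the library with the highest mitochondrial share. In bulk RNA, fewer cells of a type and less RNA per cell cannot be told apart, and this holds for every result that follows.

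The ratio of summed mitochondrial to summed nuclear FPKM does not depend on how a library is scaled as a whole. It was 4.23, 3.84 and 4.06 in NC replicates 1 to 3, 4.56, 3.82 and 4.23 in CTX and 4.75, 6.05 and 4.81 in HBOT. All 3 HBOT libraries were above all 6 others, the nearest being CTX replicate 1, and this holds with or without HBOT replicate 2. NC and CTX overlapped, with means of 4.05 ± 0.196 and 4.205 ± 0.373 (SD, n = 3), and the HBOT mean was 5.202 ± 0.734. On the log2 scale the mean ratios were 2.02, 2.07 and 2.37. Since the sum is dominated by the most abundant genes and the members were chosen with earlier results known, no p is attached to it.

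**Figure D1:**
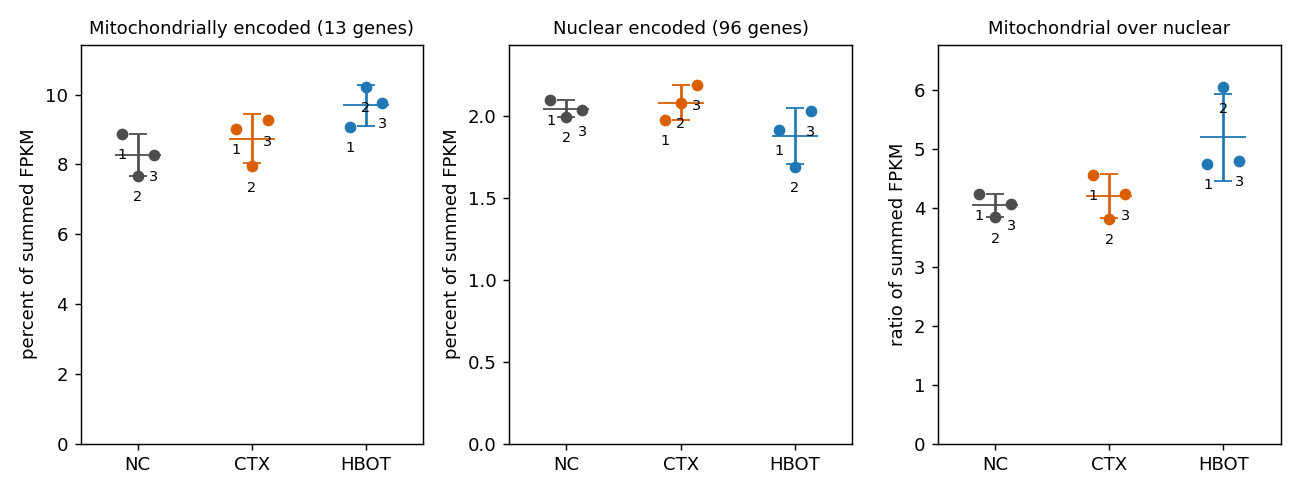
Share of summed FPKM taken by the 13 mitochondrially encoded genes (left) and the 96 nuclear genes (middle), and the ratio of the 2 sums (right), by group. Points are libraries numbered by replicate, and the horizontal bar and whisker are mean and SD (n = 3). The 3 HBOT ratios, from 4.75 to 6.05, lie above those of NC and CTX.

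Among the mitochondrial genes themselves the mean level over the 9 libraries ran from 316 FPKM for mt-Nd3, a small complex I subunit, to 8703 FPKM for mt-Co1, the catalytic core of complex IV. The other complex IV genes, mt-Co3 and mt-Co2, followed at 3240.3 and 2776 FPKM. Of the complex I genes, mt-Nd1 was highest, at 4229.9 FPKM, ahead of mt-Nd4 (2529), mt-Nd6 (1657), mt-Nd2 (1604), mt-Nd5 (1462) and mt-Nd4l (1092). The ATP synthase genes mt-Atp6 and mt-Atp8 stood at 3528 and 1015 FPKM, and mt-Cytb, the only complex III gene of this genome, at 3957. The reading frames of mt-Atp8 and mt-Atp6, and of mt-Nd4l and mt-Nd4, overlap on shared transcripts, so the division of reads within these pairs is uncertain. mt-Nd6 lies on the opposite strand from the others, and without a statement that counting used strand, its reads cannot be told apart from antisense RNA. Nuclear copies of mitochondrial DNA can also take or give reads.

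In HBOT against NC, 13 of 13 mitochondrial genes were higher (median log2 fold change 0.25), beside 47.6% of all genes tested (median -0.01). For 7 of them every HBOT library exceeded every NC library, against a background of 10.9% of all genes tested. With limma 0 members were called in this comparison, as were 0 of all genes tested (0%). An unadjusted p under 0.05 was found for 5 mitochondrial genes, all higher in HBOT, against 11.9% of all genes. Without HBOT replicate 2 the median was 0.23, again with 13 of 13 higher and 7 without overlap, while 23.6% of all genes then did not overlap upward. Of the 13, 1 gene then had an unadjusted p under 0.05, beside 1755 of the 13338 genes tested.

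mt-Co3, a core subunit of complex IV, had the smallest p of the 13. It stood at 2924, 2467 and 2896 FPKM in NC replicates 1 to 3, 3457, 3041 and 3549 in CTX and 3300.4, 3657 and 3871 in HBOT. The lowest HBOT library was above the highest NC library, and the log2 fold change was 0.39 (SE 0.13, adjusted p = 0.337 by limma, 0.38 without HBOT replicate 2). mt-Nd4, of the proton-pumping arm of complex I, was at 2465, 2121 and 2252 FPKM in NC replicates 1 to 3, 2631, 2287 and 2562 in CTX and 2622, 2868 and 2952 in HBOT (log2 fold change 0.30, SE 0.11, adjusted p = 0.381, 0.29 without HBOT replicate 2). Here too the HBOT libraries exceeded the NC libraries, by a narrower gap. mt-Nd3 was at 298, 253 and 286 FPKM in NC replicates 1 to 3, 333, 324 and 334 in CTX and 361, 301 and 358 in HBOT. Its HBOT libraries were again above NC (0.28, SE 0.11, adjusted p = 0.384, 0.37 without HBOT replicate 2), but HBOT replicate 2 was the lowest of them.

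mt-Atp6, the proton channel subunit of ATP synthase, was at 3437, 2916 and 3104 FPKM in NC replicates 1 to 3, 3673, 3179.7 and 3756 in CTX and 3596, 3993 and 4096 in HBOT. HBOT exceeded NC in every library (0.31, SE 0.12, adjusted p = 0.398, 0.29 without HBOT replicate 2). mt-Cytb, which carries electrons through complex III, was at 3616, 3234 and 3968 FPKM in NC replicates 1 to 3, 4175, 3291 and 3889 in CTX and 4106, 4680.2 and 4656 in HBOT (0.32, SE 0.14, adjusted p = 0.419, 0.28 without HBOT replicate 2). NC replicate 3 came within reach of HBOT replicate 1, and CTX replicate 1 lay above that library. The 2 ranges stayed apart all the same. For mt-Co2 (log2 fold change 0.25, 0.30 without HBOT replicate 2) and mt-Nd4l (0.22, 0.17 without HBOT replicate 2) the groups also did not overlap. The most abundant members did overlap. mt-Co1 was at 8943, 7290.2 and 8089.8 FPKM in NC replicates 1 to 3, 8702, 7435 and 9609 in CTX and 8638, 9817 and 9805 in HBOT. mt-Nd1, a membrane-arm subunit of complex I, was at 4366, 3695 and 3801 FPKM in NC replicates 1 to 3, 3977, 3971 and 4678 in CTX and 4193, 4745 and 4643 in HBOT. In both genes NC replicate 1 was above HBOT replicate 1. NC replicate 2 was the lowest of the 9 libraries for 9 of the 13 genes, and without it the median log2 fold change of HBOT against NC was 0.20.

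**Figure D2:**
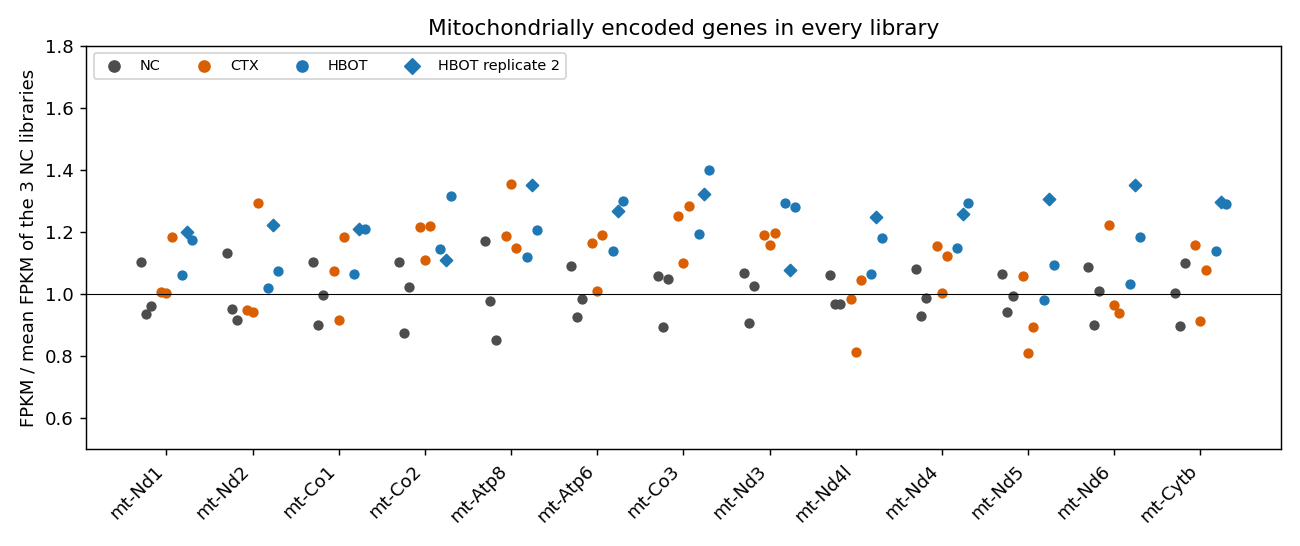
FPKM of each mitochondrially encoded gene in every library, divided by the mean of the 3 NC libraries of that gene (vertical axis, no unit). Colours are groups and the diamond is HBOT replicate 2. For mt-Co3, mt-Atp6, mt-Nd3, mt-Nd4, mt-Nd4l, mt-Co2 and mt-Cytb all HBOT points lie above all NC points.

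In CTX against NC, which asks what the drug changed, 11 of 13 mitochondrial genes were higher (median 0.09), beside 59.5% of all genes tested (median 0.05). The median of the 13 was 0.0441 without NC replicate 2, 0.169 without NC replicate 1 and 0.178 without CTX replicate 2. The groups did not overlap for 3 of them, beside 13.2% of all genes. These were mt-Co3 (log2 fold change 0.28), mt-Nd3 (0.24) and mt-Co2 (0.25). mt-Co2 stood at 2723, 2160.1 and 2524 FPKM in NC replicates 1 to 3, 3006, 2738 and 3013 in CTX and 2826, 2742 and 3252 in HBOT. mt-Atp8 was at 1032, 861 and 750.3 FPKM in NC replicates 1 to 3, 1047, 1193 and 1012 in CTX and 986, 1192 and 1064 in HBOT (0.31 in CTX against NC), with NC replicate 1 above CTX replicate 3. The 2 genes lower in CTX were mt-Nd5 (-0.12) and mt-Nd4l (-0.08, and 0.0226 without CTX replicate 2). With limma 0 of the 13 were called, as were 0 of all genes (0%), and 1 (mt-Nd3) had an unadjusted p under 0.05, against 7.98% of all genes. The smallest adjusted p of the 13 was 0.624, and 0.236 (mt-Nd3) without HBOT replicate 2.

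In HBOT against CTX, which asks what oxygen added to the drug, 12 of 13 were higher (median 0.14), and mt-Atp8 was level. Of all genes tested, 38.4% were higher there (median -0.07). Only mt-Nd4l did not overlap, at 1119, 1021 and 1018 FPKM in NC replicates 1 to 3, 1035, 856 and 1102 in CTX and 1121, 1313 and 1245 in HBOT (log2 fold change 0.30, SE 0.12, adjusted p = 0.7098, 0.25 without HBOT replicate 2, by limma), where 3.76% of all genes were higher without overlap. Its CTX replicate 2 was the lowest of the 9 libraries. Without HBOT replicate 2 the median of the set was 0.11, with 11 of 13 higher, and without CTX replicate 2 it was 0.0662. Among all 13338 genes, 0 were called (0%) and 6.09% had an unadjusted p under 0.05.

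The nuclear genes gave a different picture by group. Of the 96, 90 passed the filter on low values. In CTX against NC 64 were higher and 26 lower (median 0.07, 0.0308 without CTX replicate 3, 0.0395 without NC replicate 2 and 0.111 without CTX replicate 1). Of all genes tested, 59.5% were higher there (median 0.05). In HBOT against CTX 86 were lower and 4 higher (median -0.19), beside 8214 of 13338 genes lower (median -0.07). In HBOT against NC 73 were lower (median -0.14), beside 6990 of 13338 genes lower (median -0.01). The nuclear medians of the HBOT comparisons rest in large part on HBOT replicate 2. Without it the median was -0.08 in HBOT against CTX (72 of 90 lower, beside 50.8% of all genes). In HBOT against NC it was then -0.01 (49 of 90 lower, beside 41.8% of all genes). With limma 0 nuclear members were called in any of the 3 comparisons. An unadjusted p under 0.05 was found for 1 in CTX against NC, 9 in HBOT against CTX and 2 in HBOT against NC, all lower in the group named first. Of all genes tested, 7.98%, 6.09% and 11.9% had such a p. Without HBOT replicate 2 the nuclear counts were 3 (2 of them higher), 3 and 1, beside 2106, 696 and 1755 of the 13338 genes tested.

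Groups that did not overlap were found for 9 of 90 nuclear genes higher and 1 lower in CTX against NC, where 13.2% and 7.8% of all genes did so. In HBOT against CTX there were 9 lower and 0 higher, beside 6.44% of all genes lower and 3.76% higher. In HBOT against NC there were 9 lower and 0 higher, beside 9.6% of all genes lower and 10.9% higher. The count of lower genes is thus near the background, and that of higher genes is below it. Without HBOT replicate 2, HBOT against CTX gave 10 lower (11.1%, all genes 9.57%) and 0 higher (all genes 9.17%). Here too only the count of lower genes is near the background. HBOT against NC then gave 14 lower (15.6%, all genes 13.2%) and 3 higher (3.33%, all genes 23.6%). Any 2 of these comparisons share 3 libraries, so their counts are not independent.

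**Figure D3:**
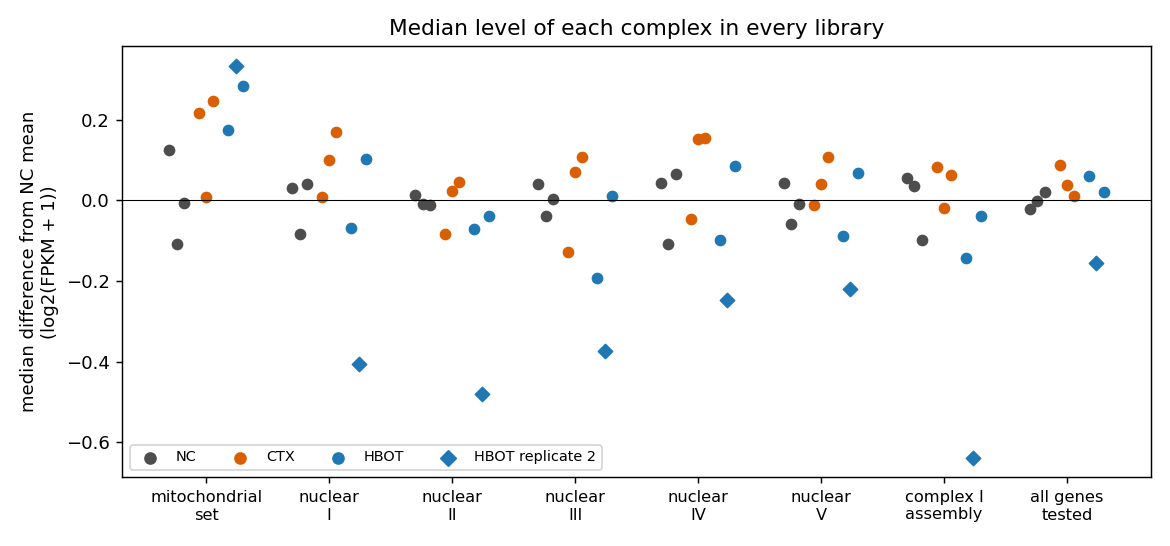
For each complex and each library, the median over its tested genes of log2(FPKM + 1) minus the gene's mean over the NC libraries (vertical axis, log2 units). HBOT replicate 2, the diamond, has the highest median for the mitochondrial set (0.33) and the lowest for each nuclear complex, down to -0.64 for the complex I assembly factors.

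Complex I, NADH dehydrogenase, has 37 tested nuclear members of 38. In CTX against NC 29 were higher (median 0.11), beside 59.5% of all genes tested. In HBOT against CTX 35 were lower (median -0.25, without HBOT replicate 2 -0.09 with 33 lower). For this and each complex below, 8214 of all 13338 genes tested were lower in HBOT against CTX, and 50.8% without HBOT replicate 2. In HBOT against NC the median was -0.15 and turned to 0.02 without that library. In HBOT replicate 2, 31 of the 37 had their lowest value. Ndufa6, an accessory subunit, was at 121, 117 and 106 FPKM in NC replicates 1 to 3, 112, 127 and 144 in CTX and 110.4, 69.9 and 134 in HBOT, lowest in HBOT replicate 2 and highest in CTX replicate 3.

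Ndufa12, an accessory subunit of the hydrophilic arm, had the smallest p of the complex in HBOT against CTX. It was at 27.4, 30.3 and 35.5 FPKM in NC replicates 1 to 3, 52.3, 31.9 and 35.1 in CTX and 26.6, 25.1 and 30.8 in HBOT (log2 fold change -0.49, SE 0.19, adjusted p = 0.7098, -0.43 without HBOT replicate 2, by limma). The groups did not overlap, but CTX replicate 1 stood far above the other 8 libraries, and without it the log2 fold change was -0.28. Ndufa5, of the same arm, was at 27.7, 21.4 and 30.3 FPKM in NC replicates 1 to 3, 32.7, 30.7 and 29.005 in CTX and 26.9, 20.7 and 23.1 in HBOT (-0.38, SE 0.15, adjusted p = 0.7098, -0.29 without HBOT replicate 2), with all HBOT libraries below all CTX libraries. In CTX against NC, Ndufs8, which holds iron-sulfur clusters, was at 89.6, 77.8 and 83.2 FPKM in NC replicates 1 to 3, 97.7, 97.7 and 115 in CTX and 87.2, 63.8 and 99.2 in HBOT (0.30, SE 0.16, adjusted p = 0.711). The CTX libraries exceeded the NC libraries. Without HBOT replicate 2 this comparison gave SE 0.0985 and adjusted p = 0.222 by limma. Ndufb3 lay on the other side, at 38.3 ± 3.998 FPKM in CTX and 42.97 ± 3.02 in NC (mean ± SD, n = 3, log2 fold change -0.17). Among complex I genes in HBOT against NC the smallest p was that of Ndufs5, at 67.2 ± 14.5 FPKM in HBOT and 85.7 ± 7.47 in NC (-0.37, -0.19 without HBOT replicate 2), and Ndufa11 led the few that were higher (0.07).

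Of the 8 Ndufaf assembly factors, which are not part of the finished complex, all 8 were lower in HBOT against CTX (median -0.20, without HBOT replicate 2 -0.12 with 5 lower). Ndufaf7, a methyltransferase of complex I assembly, was at 14.5, 13.8 and 10.1 FPKM in NC replicates 1 to 3, 8.89, 14.8 and 12.1 in CTX and 8.77, 5.28 and 9.28 in HBOT. The NC libraries lay above the HBOT libraries (-0.67, SE 0.24, adjusted p = 0.3702, -0.45 without HBOT replicate 2), whereas CTX replicate 1 was within the HBOT range. Ndufaf6 was at 5.17 ± 0.674 FPKM in CTX and 3.799 ± 0.961 in NC (log2 fold change 0.37). In HBOT against NC its fold change was 0.01, 0.07 without HBOT replicate 2, where that of Ndufaf5 was -0.06, 0.32 without HBOT replicate 2. Ndufaf3 had the smallest p of those lower in CTX, at 10.9 ± 2.06 FPKM against 11.8 ± 0.6003 in NC, and its groups overlapped. Ndufaf2 and Ndufaf5, the most abundant, ran from 11.8 to 18.7 and from 7.14 to 18.3 FPKM over the 9 libraries.

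Complex II, succinate dehydrogenase, had the lowest value of each of its 4 genes in HBOT replicate 2. Sdha, the flavoprotein, was at 89.9, 89.9 and 82.1 FPKM in NC replicates 1 to 3, 81.4, 84.9 and 89.97 in CTX and 86.1, 61.2 and 86.4 in HBOT. Sdhb, the iron-sulfur subunit, was at 90.6, 84.98 and 80.9 FPKM in NC replicates 1 to 3, 77.6, 91.4 and 91.01 in CTX and 77.2, 61.01 and 81.8 in HBOT (log2 fold change -0.24 in HBOT against CTX, -0.12 without HBOT replicate 2). The membrane anchor Sdhd was at 62.2, 63.7 and 66.6 FPKM in NC replicates 1 to 3, 61.1, 59.7 and 66.4 in CTX and 58.8, 45.7 and 61.4 in HBOT, with all HBOT libraries below all NC libraries (-0.22, SE 0.12, adjusted p = 0.4901, -0.09 without HBOT replicate 2, by limma), and Sdhc, the other anchor, ran from 18.4 to 27.7 FPKM. In CTX against NC the 4 log2 fold changes lay between -0.04 (Sdhd) and 0.03 (Sdhc).

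For complex III, all 8 nuclear genes were lower in HBOT against CTX (median -0.16, without HBOT replicate 2 -0.11 with 6 lower). Uqcrh, the hinge protein, was the most abundant, at 138, 125 and 147 FPKM in NC replicates 1 to 3, 149, 145 and 147 in CTX and 141, 128 and 156 in HBOT. Uqcrc1, a core protein, was at 100.4, 104 and 101 FPKM in NC replicates 1 to 3, 112, 111 and 117 in CTX and 111, 92.6 and 116 in HBOT. Each CTX value was above each NC value by a small margin (0.15, SE 0.10, adjusted p = 0.802, SE 0.06 and adjusted p = 0.304 without HBOT replicate 2). Uqcrfs1, the Rieske iron-sulfur protein, was at 77.6, 76.2 and 67.6 FPKM in NC replicates 1 to 3, 59.5, 64.97 and 78.6 in CTX and 63.2, 54.6 and 65.3 in HBOT, with HBOT below NC throughout (-0.27, SE 0.13, adjusted p = 0.441, -0.19 without HBOT replicate 2) and CTX replicate 3 above all NC libraries (-0.13 in CTX against NC, -0.0437 without CTX replicate 1 and -0.241 without CTX replicate 3). The small subunit Uqcr10 had the smallest p in HBOT against CTX, at 66.97 ± 19.2 and 85.9 ± 8.33 FPKM (-0.39, -0.17 without HBOT replicate 2). Uqcrb had the smallest p in HBOT against NC (-0.35, -0.33 without HBOT replicate 2), with its lowest value, 60.1 FPKM, in HBOT replicate 1.

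In complex IV, cytochrome c oxidase, Cox5a had the smallest p of any nuclear member in CTX against NC. It encodes a subunit on the matrix side of the enzyme, and stood at 109, 111 and 103 FPKM in NC replicates 1 to 3, 72.03, 82.8 and 94.97 in CTX and 83.7, 112 and 99.1 in HBOT. All CTX libraries were below all NC libraries (log2 fold change -0.38, SE 0.14, adjusted p = 0.533 by limma). Without HBOT replicate 2 that comparison gave SE 0.11 and adjusted p = 0.204. HBOT ranged across both groups (0.24 in HBOT against CTX, 0.14 without HBOT replicate 2). Of the 90 tested nuclear members Cox5a was the only one lower in CTX without overlap. Cox4i1, the most abundant, went the other way, at 314, 301 and 327 FPKM in NC replicates 1 to 3, 342, 354 and 359 in CTX and 326, 289 and 358 in HBOT. CTX was above NC throughout (0.16, SE 0.10, adjusted p = 0.778, SE 0.08 and adjusted p = 0.365 without HBOT replicate 2). Cox6a1 was at 287, 242 and 292 FPKM in NC replicates 1 to 3, 266, 303 and 350.5 in CTX and 255, 247 and 290.3 in HBOT, and its groups overlapped. Among complex IV genes Cox8a had the smallest p of those lower in HBOT against CTX (-0.27, -0.17 without HBOT replicate 2) and against NC (-0.24, -0.14 without HBOT replicate 2). It stood at 164 ± 22.1 FPKM in HBOT, 198 ± 24.4 in CTX and 193 ± 14.95 in NC (mean ± SD, n = 3), and its groups overlapped.

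Complex V, ATP synthase, held the most abundant nuclear member, Atp5g3, a copy of the rotating c subunit, at 638, 544 and 449 FPKM in NC replicates 1 to 3, 561, 539 and 564 in CTX and 542, 462 and 593 in HBOT. NC held both its highest and its lowest value. Atp5b, the catalytic beta subunit, ranged from 385 to 452 FPKM. The c subunit is also encoded by Atp5g1 and Atp5g2, and of the 3 only Atp5g1, the least abundant, was lower in HBOT than in CTX without overlap. It was at 74.8, 64.7 and 47.8 FPKM in NC replicates 1 to 3, 76.8, 58.2 and 59.03 in CTX and 44.7, 53.8 and 45.1 in HBOT (-0.42, SE 0.18, adjusted p = 0.7098, -0.51 without HBOT replicate 2, by limma), and NC overlapped both groups. Atp5k, of the dimer-forming membrane part, was at 35.6, 28.1 and 34.9 FPKM in NC replicates 1 to 3, 35.6, 39.6 and 40.99 in CTX and 32.1, 22.96 and 34.3 in HBOT (-0.39, SE 0.16, adjusted p = 0.7098, -0.22 without HBOT replicate 2). HBOT was below CTX in every library. CTX was above NC (0.24), though CTX replicate 1 and NC replicate 1 were level to 3 digits. Atp5pb, a stator subunit, was at 138, 138 and 111 FPKM in NC replicates 1 to 3, 93.2, 129 and 131 in CTX and 97.6, 91.4 and 100.2 in HBOT, with HBOT below NC throughout (-0.41, SE 0.15, adjusted p = 0.372, -0.37 without HBOT replicate 2) and CTX replicate 1 among the HBOT values (-0.14 in CTX against NC, 0.0195 without CTX replicate 1). The symbol Atp5o appears in the table on 2 rows: Atp5o itself is listed at 0 in all libraries, and Atp5o_1 held 138 to 187 FPKM (0.19 in CTX against NC).

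**Figure D4:**
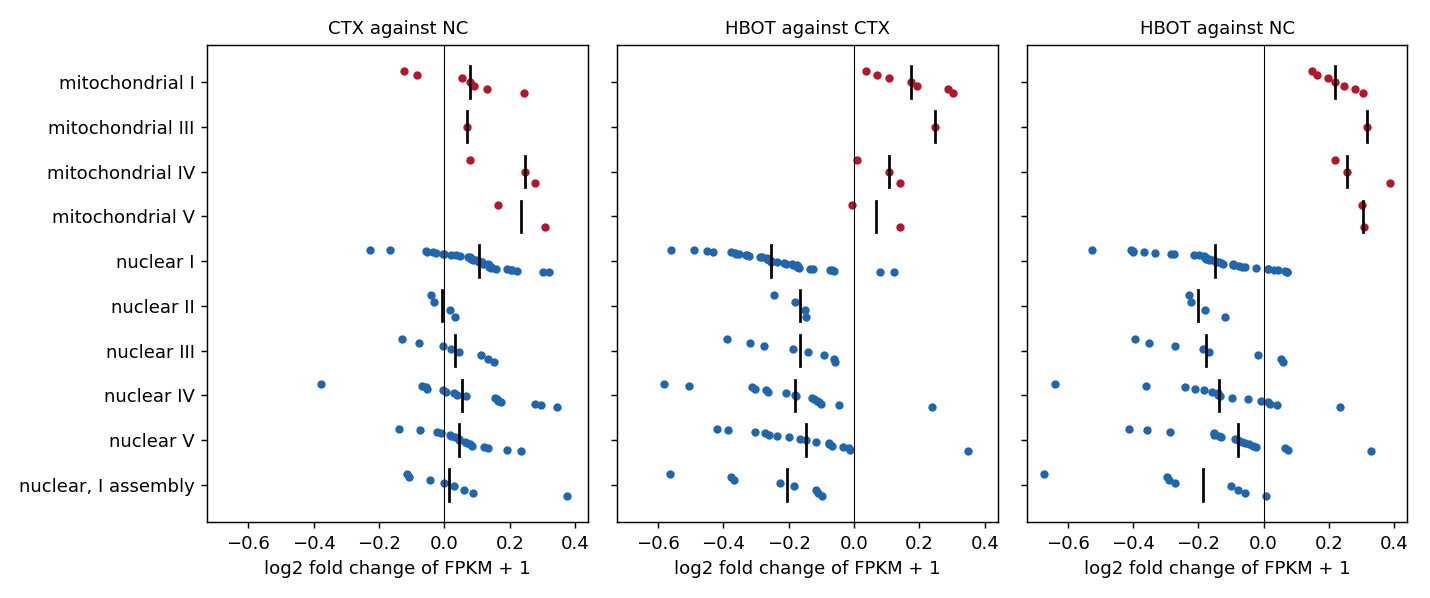
Log2 fold change of FPKM + 1 for every tested member (points) by genome and complex in the 3 comparisons. The short vertical bar is the median of a row. In HBOT against NC all 13 mitochondrial genes lie to the right of 0, and 73 of 90 nuclear genes to the left.

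Several complex IV subunits exist in a general and a tissue-restricted form. Cox4i2, the variant of Cox4i1 known from lung and induced by low oxygen, was at 2.77, 3.41 and 5.703 FPKM in NC replicates 1 to 3, 3.96, 4.62 and 6.37 in CTX and 6.895, 0.963 and 3.65 in HBOT, between 0.332% and 2.07% of the pair, both extremes being HBOT libraries. Cox7a1, the heart and skeletal muscle form of Cox7a2, was at 4.21, 4.37 and 4.76 FPKM in NC replicates 1 to 3, 2.32, 5.504 and 5.67 in CTX and 3.37, 2.05 and 4.75 in HBOT, with the lowest values in HBOT replicate 2 and CTX replicate 1. Ndufa4l2, a hypoxia-inducible relative of Ndufa4, was at 5.88, 5.97 and 5.87 FPKM in NC replicates 1 to 3, 3.204, 7.94 and 6.795 in CTX and 4.88, 1.52 and 4.88 in HBOT. The NC values were nearly equal, and all HBOT libraries were below them (log2 fold change -0.64, SE 0.37, adjusted p = 0.506, -0.23 without HBOT replicate 2). Cox6b2, known as the testis form of Cox6b1, reached 17.5, 13.3 and 24.4 FPKM in NC replicates 1 to 3, 25.8, 24.1 and 19.5 in CTX and 21.96, 15.1 and 28.6 in HBOT. It made up 9.84% to 17.8% of the pair over all libraries, and its groups overlapped (0.24, 0.47 without HBOT replicate 2 in HBOT against NC). The remaining restricted forms did not pass the filter: Cox6a2, the muscle form of Cox6a1, was at 0.861 FPKM or less, Cox7b2 at 0.311, Cox8b at 0.503, Cox8c at 0.0564 and the complex I copy Ndufb11b at 0.0959.

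HBOT replicate 2 was the lowest of the 9 libraries for 68 of 90 nuclear members (75.6%), beside 44.1% of all genes tested. It was the highest for 5 nuclear members (5.56%, all genes 19.5%). Of the mitochondrial genes, 0 had their lowest and 6 their highest value there. Against the mean of the other 8 libraries the median difference was -24.1% for nuclear genes, 15.4% for mitochondrial genes and -15.4% for all genes. By complex it was -27.8% for nuclear complex I, -28.5% for II, -20.1% for III, -18.5% for IV, -16.3% for V and -38.1% for the assembly factors. These values describe 1 library, with no replicate check.

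Within that library single subunits stood far from the median of their complex. Ndufv3, an accessory subunit near the NADH site, was at 21.98 FPKM in HBOT replicate 2, where the other 8 libraries ran from 42.2 to 54.3 FPKM. Ndufs3, a core subunit of the same arm, was at 51.7 FPKM in HBOT replicate 2, where the other 8 libraries ran from 80.9 to 106 FPKM. Cox7a2l, which joins complexes III and IV into supercomplexes, was at 49.4 FPKM in HBOT replicate 2, where the other 8 libraries ran from 79.1 to 100.4 FPKM. Nuclear members with their highest value there included Cox5a, Atp5d, Uqcrq and Ndufaf4. Atp5d, the delta subunit of the ATP synthase rotor stalk, stood out, at 243 FPKM in HBOT replicate 2, where the other 8 libraries ran from 111 to 145 FPKM, a difference of 93.4% from their mean. With this library the log2 fold change was 0.33 in HBOT against NC and 0.35 in HBOT against CTX, and without it 0.02 and 0.04. Uqcrq, a small complex III subunit, was at 62.3 FPKM in HBOT replicate 2, where the other 8 libraries ran from 38.5 to 61.5 FPKM.

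**Figure D5:**
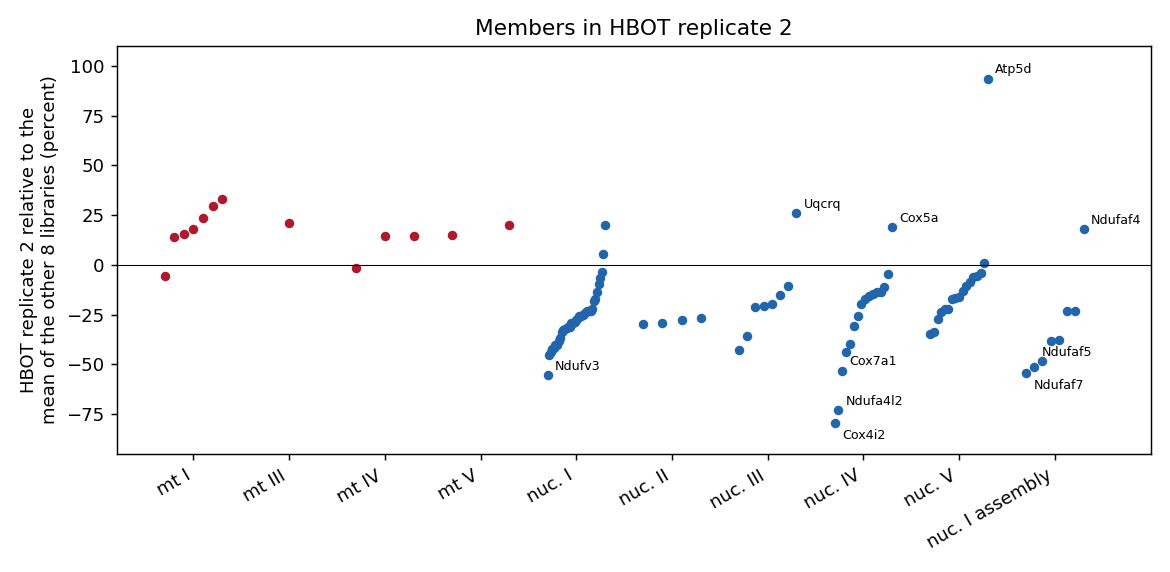
Difference of HBOT replicate 2 from the mean of the other 8 libraries, in percent of FPKM, for every tested member by genome and complex. Mitochondrial genes lie mostly above 0 and nuclear genes mostly below, with Atp5d (93.4%) and Cox4i2 (-79.4%) at the extremes.

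Genes that serve the pathway from outside these families were read from 6 lists, and 0 of their members were called in any comparison with limma. Of 51 assembly factors, which include the 8 Ndufaf genes, 48 were tested and 43 were lower in HBOT against CTX (median -0.26, -0.05 with 31 lower without HBOT replicate 2). Beside them, 8214 of all 13338 genes tested were lower there, and 50.8% without HBOT replicate 2. Cox20, which helps to insert mt-Co2 into complex IV, was at 37.1, 38.5 and 39.3 FPKM in NC replicates 1 to 3, 32.9, 40.6 and 39.3 in CTX and 30.3, 17.3 and 29.2 in HBOT. All HBOT libraries were below both other groups (-0.57, SE 0.20, adjusted p = 0.7098, -0.32 without HBOT replicate 2). Coa7 was at 5.41 ± 0.566 FPKM in HBOT and 7.03 ± 0.1897 in CTX (-0.33, -0.33 without HBOT replicate 2), without overlap. Atpaf1, needed to assemble the F1 part of ATP synthase, was at 8.75 ± 0.807 FPKM in CTX and 11.6 ± 0.389 in NC, again without overlap. Its log2 fold change was -0.37 (SE 0.17, adjusted p = 0.646, SE 0.12 and adjusted p = 0.21 without HBOT replicate 2). Cox17, a copper chaperone, was the most abundant of the list, at 40.5 to 70.1 FPKM.

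Among electron carriers and genes of ubiquinone synthesis, 12 of 15 tested genes were lower in HBOT against CTX (median -0.20, -0.07 with 13 lower without HBOT replicate 2). The shares of all genes lower there were 8214 of 13338, and 50.8% without HBOT replicate 2. Coq2, which attaches the side chain of ubiquinone, was at 37.8, 30.2 and 30.9 FPKM in NC replicates 1 to 3, 44.7, 40.2 and 37.6 in CTX and 32.04, 26.7 and 30.4 in HBOT. CTX exceeded HBOT in every library (-0.45, SE 0.13, adjusted p = 0.7098, -0.37 without HBOT replicate 2), and in CTX against NC the groups overlapped through NC replicate 1 (0.31). Coq9, a lipid-binding protein of this route, was at 25.8 ± 9.57 FPKM in HBOT and 36.8 ± 4.78 in CTX, with overlap (-0.56, -0.22 without HBOT replicate 2). Cyc1, the cytochrome subunit of complex III that the symbol rule leaves out, was at 80.6 ± 3.32 FPKM in CTX and 69.7 ± 3.89 in NC, without overlap. Its log2 fold change was 0.21 (SE 0.10, adjusted p = 0.678, SE 0.08 and adjusted p = 0.283 without HBOT replicate 2). The flavoprotein Etfb led the list in level, at 78.4 to 122 FPKM.

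Among regulators of mitochondrial biogenesis, Ppargc1a, the coactivator best known for driving biogenesis, stayed under the filter, at 0.191 to 0.399 FPKM. Of the 11 tested of 14, 8 were higher in CTX against NC (median 0.09) and 6 in HBOT against CTX (median 0.01). Of all genes tested, 59.5% and 38.4% were higher in these comparisons. Without HBOT replicate 2, 8 of the 11 were lower in HBOT against CTX (median -0.03). Nrf1, a transcription factor of nuclear respiratory genes, was at 10.5, 11.3 and 11.2 FPKM in NC replicates 1 to 3, 13.8, 11.5 and 11.5 in CTX and 13.004, 17.2 and 11.3 in HBOT. It was above NC in every CTX and HBOT library, but barely in HBOT replicate 3 (11.34, beside 11.26 in NC replicate 2). Gabpa, a second such factor, was at 13.6, 15.5 and 14.9 FPKM in NC replicates 1 to 3, 13.1, 12.9 and 12.7 in CTX and 13.5, 12.3 and 13.002 in HBOT. It was below NC in every CTX and HBOT library (-0.17 in CTX against NC), but barely in HBOT replicate 1 (13.46, beside 13.57 in NC replicate 1). The nuclear receptor Esrra was at 12.6, 10.5 and 10.5 FPKM in NC replicates 1 to 3, 10.001, 12.9 and 12.04 in CTX and 10.3, 7.21 and 11.6 in HBOT (-0.25 in HBOT against CTX, -0.07 without HBOT replicate 2). Ppard was at 11.3 ± 2.33 FPKM in HBOT and 9.13 ± 0.263 in CTX (0.27, 0.12 without HBOT replicate 2), and Ppara at 2.14 ± 0.837 in CTX and 1.41 ± 0.151 in NC. Pprc1, a relative of Ppargc1a and the most abundant of the list, was at 41.4 FPKM in HBOT replicate 2 and at 22.5 FPKM or less elsewhere.

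Of 25 genes that copy, transcribe or process mitochondrial nucleic acids, 17 were higher in CTX against NC (median 0.10) and 15 lower in HBOT against CTX (median -0.10, -0.07 with 17 lower without HBOT replicate 2). Of the 13338 genes tested, 7930 were higher in CTX against NC and 8214 lower in HBOT against CTX. Tfam, which packages mitochondrial DNA and starts its transcription, was at 11.4, 11.9 and 12.8 FPKM in NC replicates 1 to 3, 11.95, 10.8 and 11.6 in CTX and 12.1, 12.6 and 10.1 in HBOT, and the 3 groups overlapped. Fastkd2, an RNA-binding protein of mitochondria, was at 8.73, 8.18 and 7.82 FPKM in NC replicates 1 to 3, 9.92, 9.29 and 10.2 in CTX and 8.06, 7.68 and 7.403 in HBOT. CTX lay above both other groups without overlap (0.22 against NC, and HBOT against CTX -0.31, SE 0.10, adjusted p = 0.7098, -0.31 without HBOT replicate 2, by limma). Polg, the DNA polymerase of mitochondria, was at 21.9 ± 0.933 FPKM in CTX and 19.1 ± 1.61 in NC. Ssbp1, the single-strand binding protein, was at 35.2 ± 9.01 in HBOT and 47.2 ± 4.03 in CTX (-0.44, -0.22 without HBOT replicate 2), and the protease Lonp1, the most abundant, ran from 57.5 to 95.6 FPKM.

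The 16 genes of the citric acid cycle and pyruvate dehydrogenase had medians of 0.01 in CTX against NC and -0.08 in HBOT against CTX (-0.04 without HBOT replicate 2). Mdh2, mitochondrial malate dehydrogenase, was at 156, 155 and 158 FPKM in NC replicates 1 to 3, 173, 176 and 193 in CTX and 179, 222 and 184 in HBOT. NC was lower than both other groups in every library (0.20 in CTX and in HBOT 0.31, SE 0.11, adjusted p = 0.354, 0.21 without HBOT replicate 2, by limma). Idh3b was at 69.1 ± 9.79 FPKM in HBOT and 80.2 ± 1.58 in CTX (-0.22, -0.11 without HBOT replicate 2), Idh3g at 91.3 ± 6.805 in CTX and 81.8 ± 4.63 in NC, and Suclg1 ran from 42.5 to 94.95 FPKM. Of the 8 tested carriers and channels, Slc25a3, which brings phosphate to ATP synthase, was at 453, 395 and 340.2 FPKM in NC replicates 1 to 3, 346, 368 and 383 in CTX and 396, 1276 and 394 in HBOT. HBOT replicate 2 held more than any other library, and the log2 fold change of HBOT against CTX was 0.68 with it and 0.11 without. Vdac1, the outer membrane channel, was at 131 ± 4.66 FPKM in CTX and 122 ± 4.44 in NC. Slc25a31, an ADP/ATP carrier of germ cells, was at 1.02 ± 0.29996 in CTX and 0.533 ± 0.117 in NC.

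The nuclear members lie on many chromosomes, and what they share at their starts was read from RefSeq promoter windows (250 bases before to 50 after the start, build GRCm38.p6), which matched 74 of the 90 tested members by symbol. The motif of NRF1, GCGCA and GCGC with any 1 base between them, was found on either strand in 18 members (24.3%), and in 5.19% of the 27025 genes in the promoter table. The GABPA motif CCGGAAG was found in 19 members (25.7%, all genes 9.93%). The YY1 core AAGATGG was in 12 (16.2%, all genes 7.28%), and in 5 of them it was followed by CGGC (6.76%, all genes 0.755%). The motif of estrogen-related receptors, TNAAGGTCA, was in 3 members, Atp5g3, Ndufb4 and Sdhd (4.05%, all genes 1.43%). All motifs were read on both strands, the NRF1 letters can match both strands at 1 place, and the long YY1 form is part of the core count. The members counted had passed the filter on low values, whereas the share of all genes includes genes that did not. The 2 shares are therefore not from like sets. A match is a description of letters, not a binding site.

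The windows of 5 members are shown to place these letters, with motif matches in capitals. Whether motifs go with differences between groups was not tested. Atp5k and Ndufa5 are among the 86 of 90 tested nuclear members that were lower in HBOT against CTX. Sdhd holds 3 kinds of motif, and Ndufs6 holds the NRF1 letters and the long YY1 form. Cox5a, lower in CTX than in NC without overlap, holds none of the motifs in its window. The positions of the 5 windows in GRCm38.p6 are chr5:108434350-108434649, minus strand (Atp5k), chr6:24527477-24527776, minus strand (Ndufa5, the first of 2 overlapping windows), chr9:50603800-50604099, minus strand (Sdhd), chr13:73328433-73328732, minus strand (Ndufs6) and chr9:57520982-57521281, plus strand (Cox5a).
Atp5k: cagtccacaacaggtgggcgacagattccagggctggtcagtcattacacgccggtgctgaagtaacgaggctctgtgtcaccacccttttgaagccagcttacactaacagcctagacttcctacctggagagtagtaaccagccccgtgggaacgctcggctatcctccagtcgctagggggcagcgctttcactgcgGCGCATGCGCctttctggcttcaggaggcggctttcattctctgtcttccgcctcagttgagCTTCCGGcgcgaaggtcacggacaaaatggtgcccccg
Ndufa5: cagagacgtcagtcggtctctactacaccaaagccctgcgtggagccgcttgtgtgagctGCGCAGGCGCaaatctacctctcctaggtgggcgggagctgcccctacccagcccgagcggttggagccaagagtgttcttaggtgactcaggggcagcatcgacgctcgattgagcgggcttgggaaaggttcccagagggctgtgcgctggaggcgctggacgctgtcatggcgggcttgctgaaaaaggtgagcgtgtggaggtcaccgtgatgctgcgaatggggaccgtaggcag
Sdhd: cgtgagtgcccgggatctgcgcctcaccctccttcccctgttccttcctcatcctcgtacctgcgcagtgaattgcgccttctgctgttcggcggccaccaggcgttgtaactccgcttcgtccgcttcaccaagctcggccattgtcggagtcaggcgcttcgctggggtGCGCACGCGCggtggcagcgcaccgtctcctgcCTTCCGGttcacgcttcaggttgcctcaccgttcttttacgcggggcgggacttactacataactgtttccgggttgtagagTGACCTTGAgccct
Ndufs6: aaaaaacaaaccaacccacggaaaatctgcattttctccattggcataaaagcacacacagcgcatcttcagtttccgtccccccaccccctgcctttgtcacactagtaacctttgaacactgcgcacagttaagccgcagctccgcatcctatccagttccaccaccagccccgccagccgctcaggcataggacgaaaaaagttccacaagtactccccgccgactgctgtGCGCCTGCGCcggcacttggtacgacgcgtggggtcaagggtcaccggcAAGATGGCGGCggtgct
Cox5a: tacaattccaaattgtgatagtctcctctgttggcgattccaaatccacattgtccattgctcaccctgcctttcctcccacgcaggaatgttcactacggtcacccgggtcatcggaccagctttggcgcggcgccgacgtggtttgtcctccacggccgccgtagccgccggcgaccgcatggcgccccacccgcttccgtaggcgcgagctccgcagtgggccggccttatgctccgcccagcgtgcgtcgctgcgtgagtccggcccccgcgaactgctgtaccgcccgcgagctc
In Atp5k the capitals mark NRF1 and then GABPA letters, in Ndufa5 NRF1, in Sdhd NRF1, GABPA and the estrogen-related receptor motif in that order, and in Ndufs6 NRF1 and then YY1. Ndufs6, an accessory subunit of complex I, was at 36.2, 34.5 and 41.5 FPKM in NC replicates 1 to 3, 41.4, 39.8 and 42.2 in CTX and 40.5, 30.2 and 43.6 in HBOT. HBOT replicate 2 was its lowest library, as it was for 68 of the 90 tested nuclear members.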

How the data were processed

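The values are FPKM, made and deposited by the authors as a single table of 9 ovary libraries. Per the labels' protocols, RNA was extracted with TRIzol, enriched with oligo(dT) beads and built into libraries with the VAHTS mRNA-seq v3 kit. The submitters' processing notes name fastp 0.23.4 and build GRCm39 (mm39). Which aligner, counting tool and annotation were used is not given in the sources used here. Columns were matched to samples by the names in the sample descriptions, and 0 were left unmatched. FPKM holds no read counts, so depth is unknown and count models were not used. Selection by poly(A) can bear on mitochondrial transcripts, whose tails are short, and on mt-Nd6, which mostly lacks one.

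Values were taken as log2(FPKM + 1) for the 13338 genes that reached 1 FPKM in 3 or more libraries. A single model held all 3 groups (limma 3.58.1 in R 4.3.3, eBayes with trend), with Benjamini-Hochberg adjustment over all tested genes. It was checked on simulated data whose changes were larger than any log2 fold change given here. That check therefore does not cover changes as small as those of the members. The members and lists were chosen with earlier results of these data known, so sums and medians over them carry no p. Genes were named by level within a complex, by smallest p in each complex, comparison and direction, and as isoform pairs, and of each other list by the 2 smallest p and the highest level. Ndufa5, Atp5g1, Ndufs6, the promoters shown and the genes described in HBOT replicate 2 were chosen after their values were seen. Of the genes these rules name, 1 is not reported here. Alternatives were another pseudocount (0.1), no filter, 4 scalings, a fit of 2 groups, the replicate number as a block, library weights and each library left out. Figures were drawn with matplotlib 3.10.9.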

Additional observations from a re-analysis of the deposited data

How the results depend on the processing

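Over 21 settings, 0 oxidative phosphorylation genes were called in any comparison. Over all genes, where 0 were called, a fit of 2 groups only called 31 in CTX against NC. Library weights gave 123 calls in CTX against NC, 5 in HBOT against CTX and 181 in HBOT against NC. With no filter there was 1 call in each HBOT comparison. Leaving out 1 library gave 0 to 9 calls in CTX against NC (8 without HBOT replicate 2, 9 without HBOT replicate 3), 0 to 1 in HBOT against CTX and 0 to 3 in HBOT against NC. With alternatives added after the data were seen, CTX against NC gave 9 calls without HBOT replicate 2 under median-of-ratios scaling, and 16 without HBOT replicate 2 and CTX replicate 1, a setting that gave 2 in HBOT against CTX.

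With a library left out, the mitochondrial median of HBOT against NC ran from 0.197 to 0.3202 and the nuclear median of HBOT against CTX from -0.304 to -0.0845. The log2 ratio of mitochondrial to nuclear sums was 0.241 to 0.416 higher in HBOT than in NC, and for CTX against NC it ran from -0.008103 to 0.1204. The median of nuclear complex I in HBOT against NC ran from -0.246 to 0.0162. In CTX against NC the median of nuclear complex I ran from 0.05499 to 0.152 (lowest without CTX replicate 3). That of nuclear complex V in HBOT against CTX ran from -0.233 to -0.0843, and was -0.0563 without HBOT replicate 2 and CTX replicate 1. Over the 17 alternatives read for the sets, scalings included, some values fell lower than with a library left out. The mitochondrial median fell to 0.1525 in HBOT against NC and to 0.0314 in CTX against NC. The nuclear median of CTX against NC fell to 0.0105. For mt-Nd4l in HBOT against NC the lowest log2 fold change over 20 alternatives was 0.0527.

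Some single genes changed sign with a library left out: Atp5pb in CTX against NC (-0.243 to 0.0195), mt-Nd4l in CTX against NC (-0.159 to 0.0226) and Ndufa11 in HBOT against NC (-0.0124 to 0.151). Others in CTX against NC kept their sign but moved by over 1.5 times: mt-Nd5 (-0.0786 without NC replicate 1, -0.229 without CTX replicate 1, -0.0361 without CTX replicate 2), mt-Co2, Atp5k and Atp5o_1 (0.154, 0.1301 and 0.112 without NC replicate 2), mt-Atp8 (0.197 without NC replicate 3) and Ndufb3 (-0.0793 without CTX replicate 1). Library weights gave -0.0268 for Atp5d in HBOT against CTX, and -0.0235 for Atp5d in HBOT against NC. Without HBOT replicate 2 under median-of-ratios scaling, Atp5d was at -0.0432 in HBOT against NC. Without HBOT replicate 2 and CTX replicate 1, HBOT against CTX gave -0.0172 for Atp5d (with 1 library left out, 0.0397 to 0.601), and Atp5pb was at 0.0195 in CTX against NC. The cause was not tested.

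The groups share replicate numbers, but same-numbered libraries did not deviate together (correlations of their deviations across genes from -0.287 to 0.156). With the replicate block 0 genes were called in each comparison. FPKM keeps no depth, and 3 libraries a group limit the precision.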

Other observations

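These ratios were singled out after the values were seen and carry no test. mt-Nd6 is read from the opposite strand of mitochondrial DNA from its neighbour mt-Nd5, and its level relative to that neighbour was 1.09, 1.02 and 1.09 in NC replicates 1 to 3, 1.23, 1.27 and 1.12 in CTX and 1.13, 1.11 and 1.16 in HBOT. Each of the 6 libraries exposed to the drug was above the 3 NC libraries. In FPKM, mt-Nd5 was at 1532, 1354 and 1432 FPKM in NC replicates 1 to 3, 1526, 1167 and 1288 in CTX and 1411, 1879.9 and 1573 in HBOT, and mt-Nd6 at 1672, 1387 and 1555 FPKM in NC replicates 1 to 3, 1881, 1486 and 1442 in CTX and 1589, 2078 and 1823 in HBOT. The ratio of mt-Co1 to mt-Cytb, both on the strand of mt-Nd5, ran from 2.04 to 2.47 in NC and from 2.08 to 2.47 in CTX, but was 2.102 ± 0.004298 (SD, n = 3) in HBOT.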
